A study of Mus musculus with 9 samples.

Results

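The retinoid genes described here make, bind and sense retinoic acid, and were taken by gene symbol from the platform annotation with every probe set that carries 1 of those symbols. They are 9 of the 18193 genes on the array, with 14 of its 45101 probe sets: Aldh1a2, Aldh1a3, Dhrs3, Crabp1, Crabp2, Rara, Rarb, Rarg and Rxra. Transcripts were measured in 3 layers of the newborn mouse bladder: the urothelium (the lining epithelium), the detrusor (the smooth muscle coat) and the stroma (the connective tissue between them). All animals were FVB/N mice of unstated sex that carried the SMGA/EGFP transgene, a green fluorescent reporter of smooth muscle gamma actin, so no layer came from mice without it. Each layer was cut from frozen sections by laser capture, and its RNA was amplified in 2 rounds and hybridised unpooled to 1 Affymetrix MOE430 array. There were 3 arrays per layer, 4 in all from postnatal day 1 (urothelium 2, detrusor 1 and 2, and stroma 1) and 5 from day 2. Which animal gave which capture is not labelled. Captures of different layers can therefore come from the same mouse, and p-values reflect the spread among these 9 captures, part of which may be technical.

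Retinoic acid is made from retinol in steps: alcohol and retinol dehydrogenases form retinal, and retinaldehyde dehydrogenases such as Aldh1a2 and Aldh1a3 oxidise it to retinoic acid, while Dhrs3 reduces retinal back to retinol. Inside the cell Crabp1 and Crabp2 bind retinoic acid, and Cyp26 enzymes break it down. Receptors of the Rara, Rarb and Rarg type, paired with a retinoid X receptor (RXR) such as Rxra, switch genes on or off at DNA sites made of a repeated short motif. Retinoid signalling is known for its part in bladder development, and lack of vitamin A is known to turn the urothelium into a keratinised squamous epithelium.

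The textbook site for these receptor pairs, a direct repeat of a short motif with 5 bases between the copies, was looked for in promoters, from 250 bases before to 50 after each start, because some genes of the pathway are themselves targets of the receptors. RefSeq (GRCm38.p6) gave 14 promoters for 7 of the 9 genes and none for Aldh1a3 and Crabp2. The search took 2 copies, in the same orientation, of the motif AGGTCA, the motif AGTTCA, the motif GGGTCA or the motif GGTTCA, or of any pair of them, on either strand, with 5, 2 or 1 bases between them. At a spacing of 5 the repeat stood in 1 of the 14 promoters, that of Rarb, and in 32 of all 32851 promoters (0.0974%). At spacings of 2 and 1 it stood in 0 of the 14, against 0.268% and 0.222% of all promoters. Among 78 promoters of 58 other genes of the pathway the spacing of 5 was found at Cyp26a1, the spacing of 1 at Bco1, a carotenoid-cleaving enzyme that was too dim to test, and the spacing of 2 at none. The Rarb repeat lies on the coding strand, from 53 to 37 bases before the start (chr14:16575513-16575529), and the Cyp26a1 repeat lies on the opposite strand, from 32 to 16 bases before the start (chr19:37697776-37697792). Both windows are shown because they hold the receptors' own kind of site beside genes measured below, and capitals mark the copies. A match of letters describes the sequence and is no evidence of binding in these samples.
Rarb promoter (chr14:16575477-16575569, minus strand): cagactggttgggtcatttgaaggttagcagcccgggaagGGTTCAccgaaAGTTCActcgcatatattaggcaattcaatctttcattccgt
Cyp26a1 promoter (chr19:37697736-37697807, plus strand): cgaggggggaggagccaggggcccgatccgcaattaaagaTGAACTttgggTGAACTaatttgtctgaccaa

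Levels are log2(intensity + 39.31), where intensity is the deposited signal of a probe set, so a level of 5.30 is a signal of 0 and fold changes of dim genes are understated. The median probe set of an array stood between 7.43 and 8.74. All 10 urothelial markers were above the array median on every urothelium array and all 9 smooth muscle markers on every detrusor array, while 8 of 8 fibroblast markers were above it on every array of all 3 layers. Some captures carried markers of another layer. The summed intensity of the urothelial markers was between 244665 and 344160 in urothelium and between 5412 and 7384 in detrusor, and in stroma it was 62665, 18440 and 222446, so that stroma 3 approached urothelium. That of the smooth muscle markers was 29825, 20642 and 315058 in urothelium, between 350516 and 521164 in detrusor, and between 50977 and 172910 in stroma, so that urothelium 3 approached detrusor. The 6 skeletal muscle markers summed to 671, 225 and 31739 in urothelium, between 101739 and 119151 in detrusor, and between 1384 and 9520 in stroma, so their sum set detrusor apart. Ckm, Myh8, Tnnt3 and Acta1 were each higher on every detrusor array than on any other array, but Myog and Myh3 were not. In detrusor 2 and 3 Myog was 5.56 and 6.45, against 8.00 in stroma 1. Myh3 was 8.19 and 7.74 there, against 8.72 in stroma 2. The 6 macrophage markers summed to between 5244 and 6109 in urothelium, between 6494 and 13473 in detrusor, and to 64433, 9168 and 33852 in stroma. The part of these cells in the differences below was not tested. Results were also computed without stroma 3 and urothelium 3. In tissue layers, fewer cells of a type and less RNA per cell cannot be told apart.

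The test took genes with a probe set as bright as the array median or brighter on 3 or more arrays, 13064 genes in all and 6 of the 9 retinoid genes. Crabp1, Crabp2 and Rara did not pass and are given as levels. Aldh1a2, Dhrs3 and Rxra were higher in urothelium than in detrusor, and Aldh1a2 was also lower in detrusor than in stroma (limma, Benjamini-Hochberg adjusted p under 0.05 over all genes tested). Between urothelium and detrusor 3 of the 6 genes were called, all higher, and the same test called 16.4% of all genes, 8.37% higher. The median difference of the 6 genes was 1.43, against -0.01 over all genes tested. Between urothelium and stroma 0 of 6 were called by limma, with 2 at an unadjusted p under 0.05, and 0.23% of all genes were called and 19% had such an unadjusted p. Their median difference was 0.07, against -0.12 over all genes. Between detrusor and stroma 1 of 6 was called, lower, against 5.84% of all genes in either direction and 2.72% lower, and the median difference was -0.76, against -0.16 over all genes. The counts were also 3, 0 and 1 without stroma 3 and urothelium 3, against 14.4%, 3.37% and 3.28% of all genes.

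**Figure D1:**
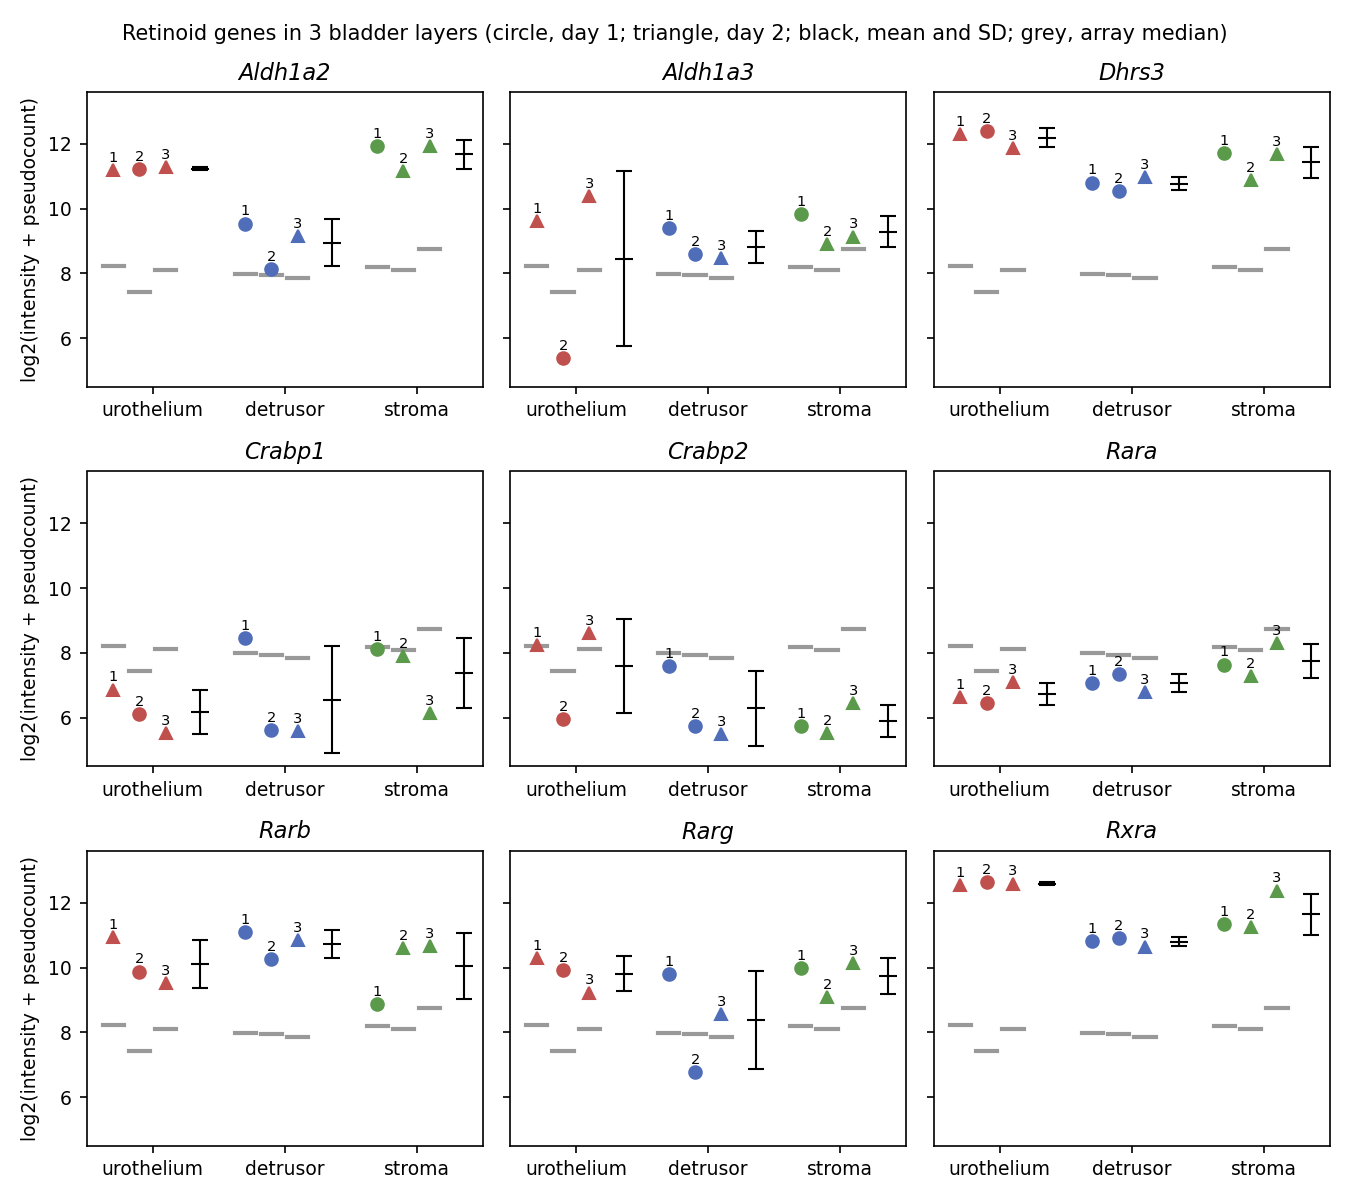
Level of each retinoid gene, log2(intensity + 39.31), on the 3 urothelium, 3 detrusor and 3 stroma arrays (points numbered by replicate, circles for day 1 and triangles for day 2), with the mean and SD of each layer beside them in black and each array's median level in grey. Aldh1a2, Dhrs3 and Rxra lie higher in urothelium than in detrusor with no overlap, whereas Crabp1, Crabp2 and Rara lie near or under the array medians.

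Aldh1a2 is the main enzyme of retinoic acid synthesis in the embryo. Its probe set (1422789_at) had levels of 11.18, 11.23 and 11.28 in urothelium, 9.54, 8.13 and 9.15 in detrusor, and 11.92, 11.17 and 11.93 in stroma. The deposited signals behind them were 2281, 2356 and 2446 in urothelium, 705, 241 and 528 in detrusor, and 3841, 2259 and 3875 in stroma. Every detrusor array lay under every array of the other layers, and urothelium and stroma overlapped. The urothelium arrays had an SD of 0.05 (n = 3), against 0.73 in detrusor and 0.44 in stroma (n = 3 each). Urothelium exceeded detrusor by 2.29 ± 0.42 log2 units (SE, 95% interval 1.37 to 3.20), a fold of 4.89 (adjusted p = 0.00444). Detrusor was below stroma by a log2 difference of -2.73 ± 0.42 (95% interval -3.65 to -1.82), a fold of 6.66 (adjusted p = 0.00785). Urothelium and stroma did not differ beyond their spread, with a difference of -0.45 ± 0.42 (95% interval -1.36 to 0.47, adjusted p = 0.606), so the order of means was stroma, urothelium and detrusor with the upper 2 not separated.

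Aldh1a2 was higher in urothelium than in detrusor on each day taken alone, by 2.39 on day 1 (1 array against 2) and by 2.08 on day 2 (2 arrays against 1). Detrusor lay below stroma by -3.09 on day 1 (2 arrays against 1) and by -2.40 on day 2 (1 against 2). Without stroma 3 and urothelium 3 the differences were 2.26 ± 0.51 for urothelium minus detrusor (adjusted p = 0.0178) and -2.60 ± 0.51 for detrusor minus stroma (adjusted p = 0.0289). In detrusor 2, the lowest array, the level of 8.13 was close to that array's median. Aldh1a2 moved with the urothelial markers between urothelium and detrusor, but in stroma 2, which had the lowest urothelial marker sum of the stroma arrays (18440), its level of 11.17 was close to those of the urothelium arrays. Mesothelial cells can express Aldh1a2, and the summed intensity of 6 mesothelial markers was 40277, 42761 and 37233 in urothelium, 8016, 3638 and 2855 in detrusor, and 11569, 12150 and 46217 in stroma. Upk3b, 1 of the 6 and also a uroplakin of the urothelium, was between 14.07 and 15.31 in urothelium. Such sums follow the brightest markers, as in stroma 3 and detrusor 1, where Podxl was the brightest (15.23 and 12.64). In urothelium 2, Upk3b and Msln (10.61) were the highest of the urothelium arrays. Wt1 (6.32), Lrrn4 (5.82), Podxl (9.31) and Muc16 (7.11) were the lowest there, while Aldh1a2 was 11.23. In stroma 2, Wt1 (12.53) and Lrrn4 (7.77) were the highest of the stroma arrays, and Upk3b, Msln, Podxl and Muc16 were the lowest. The part of mesothelial cells in the Aldh1a2 levels was not tested.

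Aldh1a3 encodes a second retinaldehyde dehydrogenase, known for its role in the developing eye and nose. Its probe set 1448789_at had levels of 9.61, 5.37 and 10.37 in urothelium, 9.39, 8.60 and 8.47 in detrusor, and 9.84, 8.90 and 9.13 in stroma. Urothelium 2 had a signal of 2.12 intensity units, close to 0, while the other urothelium arrays were among the highest 3 of the 9. The layers overlapped, and no difference passed: -0.37 ± 1.04 for urothelium minus detrusor (adjusted p = 0.867), -0.84 ± 1.04 for urothelium minus stroma (adjusted p = 0.714) and -0.47 ± 1.04 for detrusor minus stroma (adjusted p = 0.820). Urothelium 2 decides the sign of the first 2: without it they were 1.17 (adjusted p = 0.188) and 0.70 (adjusted p = 0.648). Urothelium 2 is also the only urothelium array of day 1, so its low value and the day cannot be told apart. The other 2 probe sets, 1417642_at and 1427395_a_at, lay below the array median on all 9 arrays, with means between 6.25 and 7.14.

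Dhrs3 encodes a retinal reductase that lowers the supply of retinal, and it is known to be induced by retinoic acid. Its probe set (1448390_a_at) had levels of 12.30, 12.41 and 11.87 in urothelium, 10.80, 10.55 and 10.97 in detrusor, and 11.72, 10.89 and 11.69 in stroma. Urothelium lay above both other layers on every array, and detrusor and stroma overlapped, with stroma 2 between detrusor 1 and detrusor 3. Urothelium exceeded detrusor by 1.42 ± 0.34 (95% interval 0.67 to 2.16), a fold of 2.67 (adjusted p = 0.0159). This call was lost when urothelium 1 was left out (1.36, adjusted p = 0.0596), when urothelium 2 was (1.31, adjusted p = 0.0604) and when detrusor 2 was (1.30, adjusted p = 0.0558). Within days the difference was 1.73 on day 1 and 1.11 on day 2. The 0.76 ± 0.34 between urothelium and stroma did not pass (95% interval 0.01 to 1.50, adjusted p = 0.253), nor did the -0.66 ± 0.34 between detrusor and stroma (95% interval -1.40 to 0.08, adjusted p = 0.271).

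**Figure D2:**
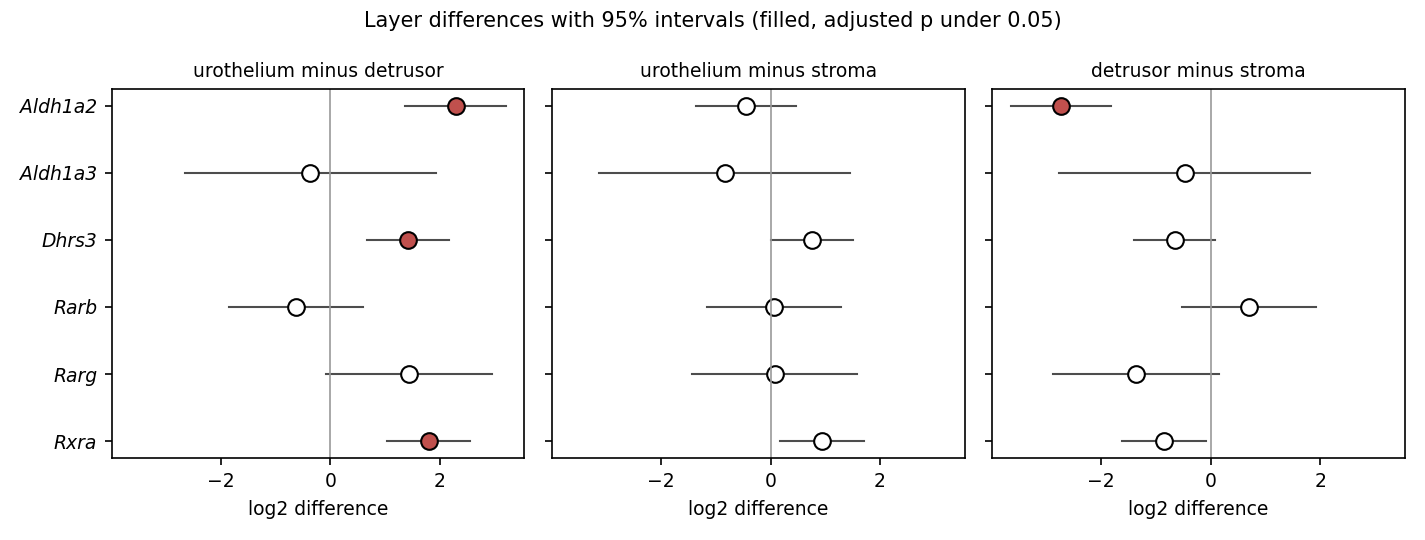
Differences between layers in log2 units for the 6 retinoid genes that passed the filter, with 95% intervals, for urothelium minus detrusor, urothelium minus stroma and detrusor minus stroma. Filled points have an adjusted p under 0.05: Aldh1a2 at 2.29, Dhrs3 at 1.42 and Rxra at 1.79 in the first comparison, and Aldh1a2 at -2.73 in the last.

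Both cellular retinoic acid binding proteins were dim. Crabp1 (1448326_a_at), which binds retinoic acid in the cytoplasm and is thought to hold it there or pass it to breakdown, had levels of 6.87, 6.12 and 5.52 in urothelium, 8.46, 5.62 and 5.59 in detrusor, and 8.11, 7.91 and 6.14 in stroma. It reached the array median on 1 array, detrusor 1, and the layers overlapped. Crabp2 (1451191_at), which carries retinoic acid to the receptors in the nucleus, had levels of 8.24, 5.95 and 8.62 in urothelium, 7.60, 5.75 and 5.49 in detrusor, and 5.73, 5.51 and 6.44 in stroma. It reached the array median on 2 arrays, urothelium 1 and 3, and urothelium 2 lay among the arrays of the other layers. With the filter dropped and 18193 genes tested, Crabp2 differed by 1.71 between urothelium and stroma (adjusted p = 0.274) and by 1.32 between urothelium and detrusor (adjusted p = 0.335). On the same scale Crabp1 differed by -0.39 for urothelium minus detrusor, -1.22 for urothelium minus stroma and -0.83 for detrusor minus stroma, with adjusted p-values of 0.859, 0.476 and 0.602. The table carries no detection calls, so such levels give no more than that the probe sets were dim.

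Among the receptors Rara was dim as well. Rara (1450180_a_at) encodes retinoic acid receptor alpha, and its levels were 6.64, 6.46 and 7.10 in urothelium, 7.08, 7.34 and 6.78 in detrusor, and 7.64, 7.28 and 8.30 in stroma. All 9 values were below their array's median. The urothelium arrays lay below the stroma arrays. As percentiles of their array they did so too, at 23.3, 31.4 and 32.0 in urothelium and 39.3, 36.6 and 42.1 in stroma. Stroma 3, the highest, was also the array with the highest median (8.74). With the filter dropped, the difference for urothelium minus stroma was -1.01 (adjusted p = 0.275).

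Rarb encodes retinoic acid receptor beta, a textbook target of the receptors through the repeat in the promoter printed above. Its 1 probe set (1454906_at) had levels of 10.94, 9.88 and 9.51 in urothelium, 11.11, 10.26 and 10.85 in detrusor, and 8.87, 10.60 and 10.67 in stroma. Every array was above its median and the 3 layers overlapped. The difference was -0.63 ± 0.56 for urothelium minus detrusor (95% interval -1.85 to 0.59, adjusted p = 0.507). It was 0.07 ± 0.56 for urothelium minus stroma (95% interval -1.16 to 1.29, adjusted p = 0.969) and 0.69 ± 0.56 for detrusor minus stroma (95% interval -0.53 to 1.92, adjusted p = 0.491). These intervals leave room for differences of more than 1 log2 unit in either direction in the comparison of urothelium with stroma. Cyp26a1, the breakdown enzyme whose promoter holds the other repeat, was dim, with levels of 7.22, 7.10 and 8.17 in urothelium, 6.80, 5.68 and 7.45 in detrusor, and 5.87, 8.44 and 7.87 in stroma, and was not tested.

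Rarg encodes retinoic acid receptor gamma, known from skin and other epithelia. Its brighter probe set (1419415_a_at) had levels of 10.30, 9.91 and 9.23 in urothelium, 9.80, 6.78 and 8.55 in detrusor, and 9.98, 9.10 and 10.13 in stroma. Detrusor 2 was the lowest of the 9 arrays and below its array's median, while detrusor 1 lay among the urothelium and stroma arrays. The difference was 1.44 ± 0.69 for urothelium minus detrusor (95% interval -0.08 to 2.95, adjusted p = 0.192), 0.08 ± 0.69 for urothelium minus stroma (adjusted p = 0.971) and -1.36 ± 0.69 for detrusor minus stroma (adjusted p = 0.265). The second probe set, 1419416_a_at, was below the array median on all 9 arrays, with means between 5.85 and 6.27.

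Rxra encodes retinoid X receptor alpha, 1 of the RXR subunits that pair with retinoic acid receptors to bind DNA. Its brightest probe set (1454773_at) had levels of 12.54, 12.64 and 12.60 in urothelium, 10.82, 10.92 and 10.65 in detrusor, and 11.34, 11.24 and 12.38 in stroma. The 3 layers did not overlap: all urothelium arrays were highest and all detrusor arrays lowest. Replicates lay close together in urothelium (SD 0.05) and detrusor (SD 0.14) and less so in stroma (SD 0.63, n = 3 each), where stroma 3 stood near urothelium. Urothelium exceeded detrusor by 1.79 ± 0.34 (95% interval 1.03 to 2.55), a fold of 3.47 (adjusted p = 0.00562), and by 1.76 on day 1 and 1.92 on day 2. The 0.94 ± 0.34 between urothelium and stroma did not pass (95% interval 0.18 to 1.70, adjusted p = 0.171), and neither did the -0.85 ± 0.34 between detrusor and stroma (95% interval -1.61 to -0.09, adjusted p = 0.172). The call against stroma depended on the arrays used. Without stroma 3, which carried a urothelial marker sum of 222446, urothelium exceeded stroma by 1.30 ± 0.30 (adjusted p = 0.0442). Without stroma 3 and urothelium 3 together it did so by 1.30 ± 0.37 and was not called (adjusted p = 0.0912). These runs called 4.04% and 3.37% of all genes between these layers, against 0.23% over all arrays. Among the stroma arrays Rxra followed the order of the urothelial markers, though stroma 1 and stroma 2 lay close together (11.34 and 11.24). Dhrs3 did not follow that order. It was lowest in stroma 2, where those markers were lowest, but was 11.72 in stroma 1 and 11.69 in stroma 3, where they were highest. The part of urothelial transcripts in their stromal levels was not tested.

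The 3 probe sets of Rxra did not behave alike. The second, 1425762_a_at, had levels of 10.06, 9.57 and 10.49 in urothelium, 9.37, 9.02 and 9.73 in detrusor, and 9.86, 9.51 and 10.88 in stroma. Its layers overlapped, and its difference between urothelium and detrusor was 0.67 ± 0.46 (adjusted p = 0.423) in a fit of all 25693 probe sets that pass the filter, of which 11% were called. The third, 1430497_at, was below the array median on all 9 arrays, with means between 5.80 and 6.13. The statements on Rxra therefore rest on 1 of its 3 probe sets. For urothelium minus detrusor and detrusor minus stroma (-0.71 ± 0.46, adjusted p = 0.425), 1425762_a_at had the same sign as the brightest. It showed no difference for urothelium minus stroma (-0.04 ± 0.46, adjusted p = 0.981 in the same fit), and stroma 3 was its highest array. The dim 1430497_at differed by -0.23 for urothelium minus detrusor and by -0.33 for urothelium minus stroma, opposite in sign to the brightest.

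**Figure D3:**
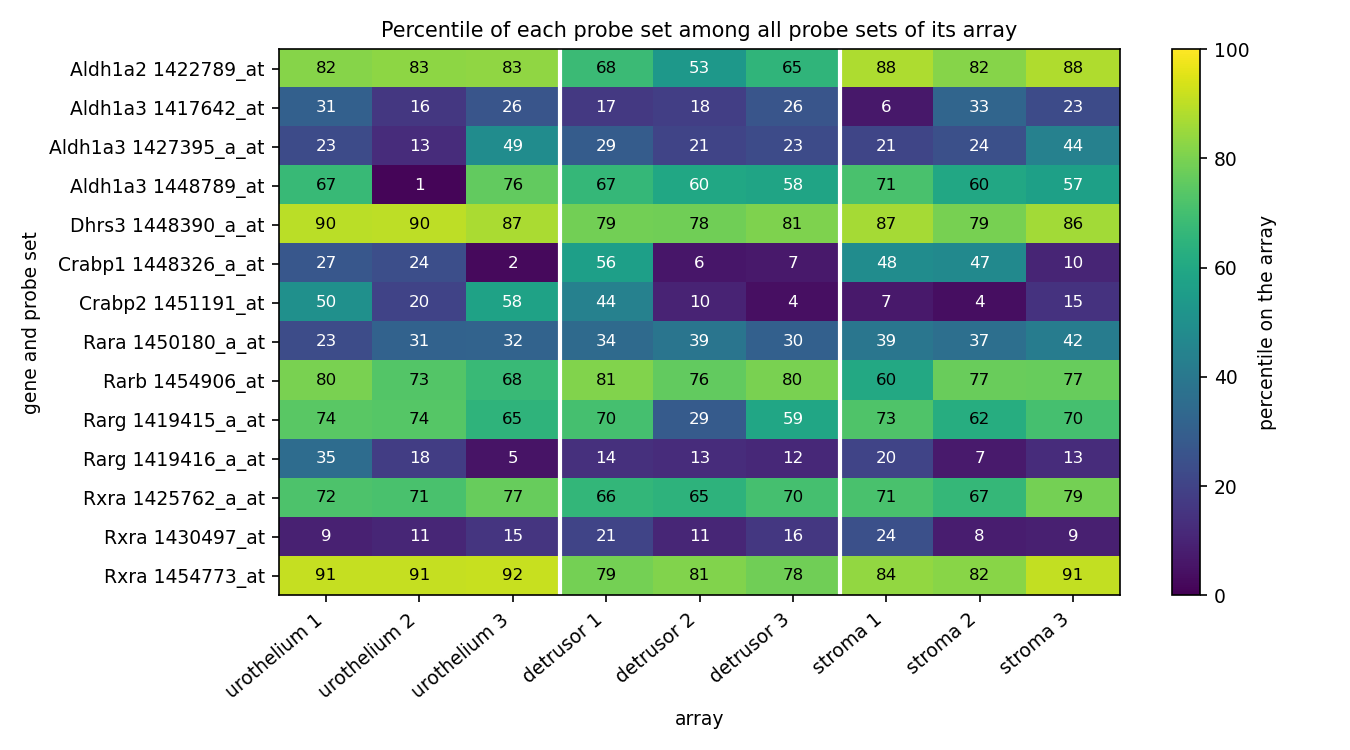
Percentile of each of the 14 retinoid probe sets among all probe sets of the same array (colour and columns, 9 arrays from urothelium through detrusor to stroma). Within a row, Aldh1a2 is lowest in the detrusor columns and the brightest Rxra probe set highest in the urothelium columns and in stroma 3. The Rara probe set, 1 Rarg, 1 Rxra and 2 Aldh1a3 probe sets are below the array median in all columns.

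By overlap of single arrays, 3 of the 6 tested genes (Aldh1a2, Dhrs3 and Rxra) were higher in all urothelium than in all detrusor arrays, against 19.3% of all genes. Between urothelium and stroma 2 of 6, Rxra and Dhrs3, were higher in all urothelium arrays, against 9.77% of all genes. Between detrusor and stroma 2 of 6, Aldh1a2 and Rxra, were lower in all detrusor arrays, against 15.3% of all genes.

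No difference by postnatal day passed the test among the 6 retinoid genes tested, with 1 day 1 array each in urothelium and stroma. With layer as a covariate, 0 of 6 were called between day 2 and day 1 by limma, 0 at an unadjusted p under 0.05, and 0.0153% of all genes were called, with 5.56% at such an unadjusted p. The largest differences were 1.09 ± 0.87 for Aldh1a3 (95% interval -0.84 to 3.03, adjusted p = 0.906) and 0.76 ± 0.44 for Rarb (95% interval -0.22 to 1.74, adjusted p = 0.886). The test of whether the day difference itself differed between layers passed for none of the 6. The furthest from 0 were those of Aldh1a3, at -5.44 for stroma against urothelium (adjusted p = 0.456) and -5.14 for detrusor against urothelium (adjusted p = 0.581), where day 1 of urothelium is the single value near 0.

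**Figure D4:**
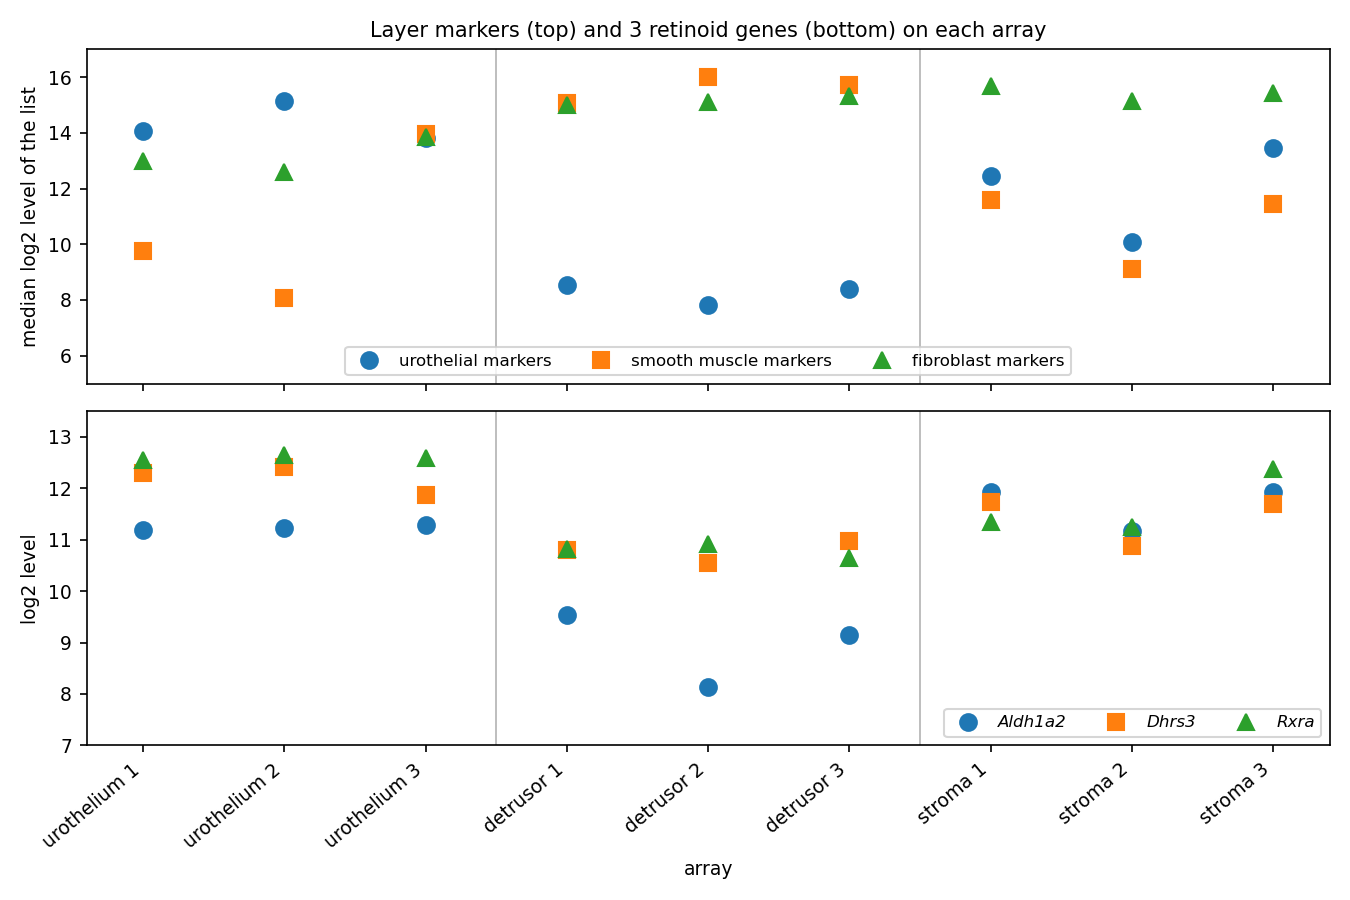
Median log2 level of the urothelial, smooth muscle and fibroblast marker lists on each of the 9 arrays (top) and the levels of 3 retinoid genes on the same arrays (bottom), ordered urothelium, detrusor and stroma. Stroma 3 is near the urothelium arrays for the urothelial markers and for Rxra, and urothelium 3 is near detrusor for the smooth muscle markers.

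The 3 genes most like each retinoid gene over the 9 arrays were taken by Pearson's r among all 13064 genes tested. They describe its pattern over the arrays, which need not be a pattern of layers. The arrays share layers, so the r values carry no p. For Aldh1a2 they were Adamdec1 (r = 0.986), Ccar2 (0.974) and Efemp1 (0.970). Adamdec1 had mean levels of 14.88 in urothelium, 8.93 in detrusor and 15.23 in stroma, so it was low in detrusor like Aldh1a2. For Dhrs3 they were Gstt3 (0.991), Pls1 (0.989) and Fbp2 (0.984), and for Rxra they were Wwc1 (0.993), Pkp1 (0.992) and Hip1r (0.992). Pkp1, a plakophilin of desmosomes, averaged 11.92 in urothelium, 6.30 in detrusor and 8.82 in stroma, and Pls1 averaged 11.98, 7.23 and 9.65 in the same order. Those nearest to Rarg were Iqsec1 (0.975), AI506816 (0.965) and Nans (0.954). For Aldh1a3 the nearest were Adm2 (0.943), Sdk2 (0.942) and Efna3 (0.936), and for Rarb they were Cdyl2 (0.940), Wars2 (0.939) and Slc4a1ap (0.924). In urothelium, detrusor and stroma Adm2 averaged 8.23, 8.14 and 8.43, and Sdk2 8.92, 8.98 and 9.02, so their layer means lay close together. Aldh1a3 itself had an SD of 2.69 within urothelium, where urothelium 2 was near 0. Among the retinoid genes themselves the highest r were 0.89 for Dhrs3 with Rxra and 0.81 for Aldh1a2 with Rarg, and Rarb had r between -0.40 and -0.03 with every other tested gene of the set.

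Other genes of the pathway were read from a list of 81 that covers uptake and storage, dehydrogenases, breakdown, partners of Rxra, cofactors and genes known to be induced through the receptors. Of these 73 were on the array and 59 were tested. Between urothelium and detrusor 14 of 59 were called, 9 higher and 5 lower, against 16.4% of all genes (8.37% higher and 8.05% lower), and the median difference was 0.35, against -0.01. Between detrusor and stroma 7 were called, 1 higher and 6 lower, against 5.84% (3.12% higher and 2.72% lower), and the median was -0.17, against -0.16. The genes called over the whole array split there into 408 higher and 355 lower, and into 589 and 144 with arrays centred on their medians. Between urothelium and stroma 0 were called by limma, with 17 at an unadjusted p under 0.05, against 0.23% and 19% of all genes. Without stroma 3 and urothelium 3 the counts were 12, 2 and 2 in the same order of comparisons, against 14.4%, 3.28% and 3.37% of all genes.

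The dehydrogenases of retinol and retinal, other than Aldh1a2 and Aldh1a3, had 4 of 14 tested genes called between urothelium and detrusor, 3 higher and 1 lower, against 8.37% and 8.05% of all genes. Rdh12, among the higher, passed the filter only through its urothelium arrays. Adh1, an alcohol dehydrogenase that oxidises retinol, had levels of 15.98, 15.93 and 16.57 in urothelium, 13.72, 13.46 and 13.28 in detrusor, and 16.37, 14.47 and 16.21 in stroma. Every detrusor array lay below all others, with a difference of 2.68 ± 0.44 for urothelium minus detrusor (adjusted p = 0.00271) and -2.20 ± 0.44 for detrusor minus stroma (adjusted p = 0.0192). The second call was lost with detrusor 2, detrusor 3 or stroma 3 left out, at differences of -2.18 to -1.93. Detrusor was the lowest layer for Adh1 on all 3 arrays, as it was for Aldh1a2. Aldh1a7, a rodent relative of Aldh1a1, had levels of 15.14, 15.75 and 15.19 in urothelium, 7.90, 8.99 and 9.82 in detrusor, and 13.29, 10.18 and 14.09 in stroma. It was 6.46 ± 0.84 higher in urothelium than in detrusor (adjusted p = 0.0012) and lower in detrusor than in stroma (-3.62 ± 0.84, adjusted p = 0.0328), and in stroma its order over the arrays was that of the urothelial markers. The call against stroma was lost when any 1 array other than urothelium 2, urothelium 3 and stroma 2 was left out, at differences of -4.07 to -2.83. Aldh1a1 and Aldh1a7 have closely similar sequences, so probes may not separate them. Aldh1a1, named here for that reason after its values were seen, had levels of 11.54, 11.80 and 11.55 in urothelium, 9.24, 6.85 and 9.79 in detrusor, and 7.68, 15.88 and 10.87 in stroma, and was not called.

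Rdh12, a retinal reductase best known from photoreceptors, had levels of 9.10, 9.29 and 8.19 in urothelium, 6.97, 6.43 and 5.71 in detrusor, and 5.83, 5.94 and 8.01 in stroma. Only its urothelium arrays reached their array's median, so it was tested only because of the layer where it was high. It was higher in urothelium than in detrusor (2.49 ± 0.71, adjusted p = 0.0353), and that call was lost with urothelium 1, urothelium 2 or any 1 detrusor array left out (2.16 to 2.79). Rdh5, which acts on 11-cis-retinol, was lower (-2.56 ± 0.65, adjusted p = 0.0209), and its call was lost with urothelium 2 (-1.80), detrusor 2 (-2.51) or detrusor 3 (-2.40) left out. Rdh11, another retinal reductase, had the second smallest p of the dehydrogenases between urothelium and stroma, with a difference of 1.05 ± 0.33 (adjusted p = 0.118), after Aldh1a7 (2.84 ± 0.84, adjusted p = 0.107), which was called without stroma 3 (3.63, adjusted p = 0.0421). Of 6 tested genes of uptake and storage, Ttr, which carries retinol with its binding protein in blood, was higher in urothelium than in detrusor (6.40 ± 1.33, adjusted p = 0.00854), with levels of 11.62, 15.35 and 11.62 in urothelium, 7.58, 5.58 and 6.23 in detrusor, and 11.55, 6.45 and 11.07 in stroma. Lpl, a lipase that helps cells take up retinyl esters, was lower (-1.42 ± 0.41, adjusted p = 0.0384), a call lost with urothelium 2, urothelium 3 or any 1 detrusor array left out (-1.58 to -1.17). Between detrusor and stroma Rbp4, the blood carrier of retinol, and Ttr differed by -1.93 ± 0.70 and -3.23 ± 1.33 and did not pass (adjusted p = 0.131 and 0.179), but without stroma 2 they did, at -2.58 (adjusted p = 0.0498) for Rbp4 and -4.85 (adjusted p = 0.0243) for Ttr. Between urothelium and stroma Lpl (-1.59 ± 0.41, adjusted p = 0.0786) and Rbp7, a cellular retinol binding protein (-1.79 ± 0.55, adjusted p = 0.115), did not pass either.

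Of the breakdown and alternative binding genes 2 were tested. Fabp5, a fatty acid binding protein that also carries retinoic acid, was higher in urothelium than in detrusor (1.08 ± 0.25, adjusted p = 0.0132) and lower in detrusor than in stroma (-1.13 ± 0.25, adjusted p = 0.0271). The first call was lost without detrusor 3 (1.02) and the second without detrusor 2, detrusor 3, stroma 1 or stroma 3 (-1.07 to -0.97). Urothelium and stroma differed by -0.05 ± 0.25 (adjusted p = 0.945). Cyp26b1, an enzyme that breaks down retinoic acid, had levels of 11.10, 7.24 and 10.98 in urothelium, 9.54, 7.10 and 8.09 in detrusor, and 8.74, 13.28 and 10.38 in stroma. Its arrays spread over more than 4 log2 units within stroma and did not separate the layers (adjusted p = 0.462 for urothelium minus detrusor, 0.706 for urothelium minus stroma and 0.248 for detrusor minus stroma).

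Among 10 tested RXR subunits and partners, Pparg, a partner of Rxra known for its role in urothelial differentiation, was higher in urothelium than in detrusor (3.69 ± 0.96, adjusted p = 0.0239), with levels of 12.60, 12.97 and 12.27 in urothelium, 9.71, 8.36 and 8.69 in detrusor, and 10.62, 7.73 and 12.67 in stroma. The call was lost with urothelium 1, urothelium 2, detrusor 2 or detrusor 3 left out, at differences of 3.41 to 3.70. Its stroma arrays followed the order of the urothelial markers, as did those of Aldh1a7. Thra, thyroid hormone receptor alpha, was lower in urothelium than in detrusor (-1.36 ± 0.40, adjusted p = 0.04), a call lost with any 1 urothelium array, detrusor 1 or detrusor 2 left out (-1.51 to -1.07), and between urothelium and stroma its -1.45 ± 0.40 did not pass (adjusted p = 0.0885) unless stroma 3 was left out (-1.77, adjusted p = 0.0426). Nr4a1, an orphan receptor that can pair with RXR, was lower in detrusor than in stroma (-2.63 ± 0.59, adjusted p = 0.0294), though not with any 1 detrusor array left out (-2.92 to -2.41), and for urothelium minus stroma it differed by -1.43 ± 0.59 (adjusted p = 0.221). Vdr, the vitamin D receptor, differed by -2.09 ± 0.96 between detrusor and stroma (adjusted p = 0.225). Rxrb, another RXR subunit, named here after its values were seen, had levels between 12.79 and 13.46 over the 9 arrays. It differed by -0.39 ± 0.28 for urothelium minus detrusor (adjusted p = 0.398) and was not called between any layers. Of 10 cofactors 1 was called higher, near the 8.37% of all genes. It was Nrip1, a corepressor recruited by ligand-bound receptors, read from its brightest probe set (1.13 ± 0.30 for urothelium minus detrusor, adjusted p = 0.0244). With the mean of its probe sets the difference was 0.16 (adjusted p = 0.885), and the call was lost with any 1 urothelium array, detrusor 1 or detrusor 3 left out (0.98 to 1.20). Its differences of 0.48 ± 0.30 for urothelium minus stroma (adjusted p = 0.416) and -0.65 ± 0.30 for detrusor minus stroma (adjusted p = 0.219) did not pass. The coactivators Ncoa1, Ncoa3 and Med1 had the other smallest p-values, with differences of 0.48 ± 0.32 for urothelium minus detrusor (adjusted p = 0.354), -0.47 ± 0.29 for detrusor minus stroma (adjusted p = 0.374) and 0.67 ± 0.29 for urothelium minus stroma (adjusted p = 0.245).

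Of 17 tested genes known to be induced through the receptors, 2 were higher and 2 lower in urothelium than in detrusor, against 8.37% and 8.05% of all genes. In detrusor 1 was higher and 2 were lower than in stroma, against 3.12% and 2.72%. Nothing about the group is read from counts this small. Foxa1, a forkhead factor of epithelia, had levels of 14.76, 15.31 and 14.68 in urothelium, 5.54, 5.50 and 8.19 in detrusor, and 12.30, 8.04 and 13.16 in stroma, a difference of 8.50 ± 1.14 for urothelium minus detrusor (adjusted p = 0.00135). Between detrusor and stroma it was called lower (-4.76 ± 1.14, adjusted p = 0.0368) although detrusor 3 lay above stroma 2, and the call was lost with stroma 3 and urothelium 3 left out (-3.76, adjusted p = 0.128). It was also lost with urothelium 1, stroma 1, stroma 3 or any 1 detrusor array left out (-5.65 to -3.76). Rarres1, a gene found by its response to a retinoid, had levels of 8.29, 8.74 and 8.61 in urothelium, 7.87, 7.65 and 7.61 in detrusor, and 10.08, 12.06 and 10.78 in stroma. Stroma was highest without overlap, and detrusor was below it by -3.27 ± 0.51 (adjusted p = 0.00801), while the -2.43 ± 0.51 between urothelium and stroma did not pass (adjusted p = 0.0566). Rarres2, the chemokine-like protein chemerin, was lower in urothelium than in detrusor (-2.71 ± 0.61, adjusted p = 0.0118), and Hoxb4, a homeobox gene, was higher (2.64 ± 0.60, adjusted p = 0.0128). These calls were lost without detrusor 1 (-2.38) or detrusor 3 (-2.49) for Rarres2 and without urothelium 1 for Hoxb4. Meis1, a homeobox gene, was lower in urothelium than in detrusor (-1.59 ± 0.36, adjusted p = 0.0121) and higher in detrusor than in stroma (1.54 ± 0.36, adjusted p = 0.0321). Its first call was lost without detrusor 2 (-1.34), and its second with urothelium 1, stroma 2, stroma 3 or any 1 detrusor array left out (1.29 to 1.68). Tgm2, a transglutaminase, differed by -1.32 ± 0.29 between urothelium and stroma (adjusted p = 0.0631), and was called there without stroma 3 and urothelium 3 (-1.71 ± 0.32, adjusted p = 0.0286). With stroma 3 alone left out, Tgm2 (-1.49, adjusted p = 0.0338) and Rarres1 (-2.52, adjusted p = 0.0463) were called lower in urothelium than in stroma. That run called 4.04% of all genes between these layers, against 0.23% over all arrays.

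**Figure D5:**
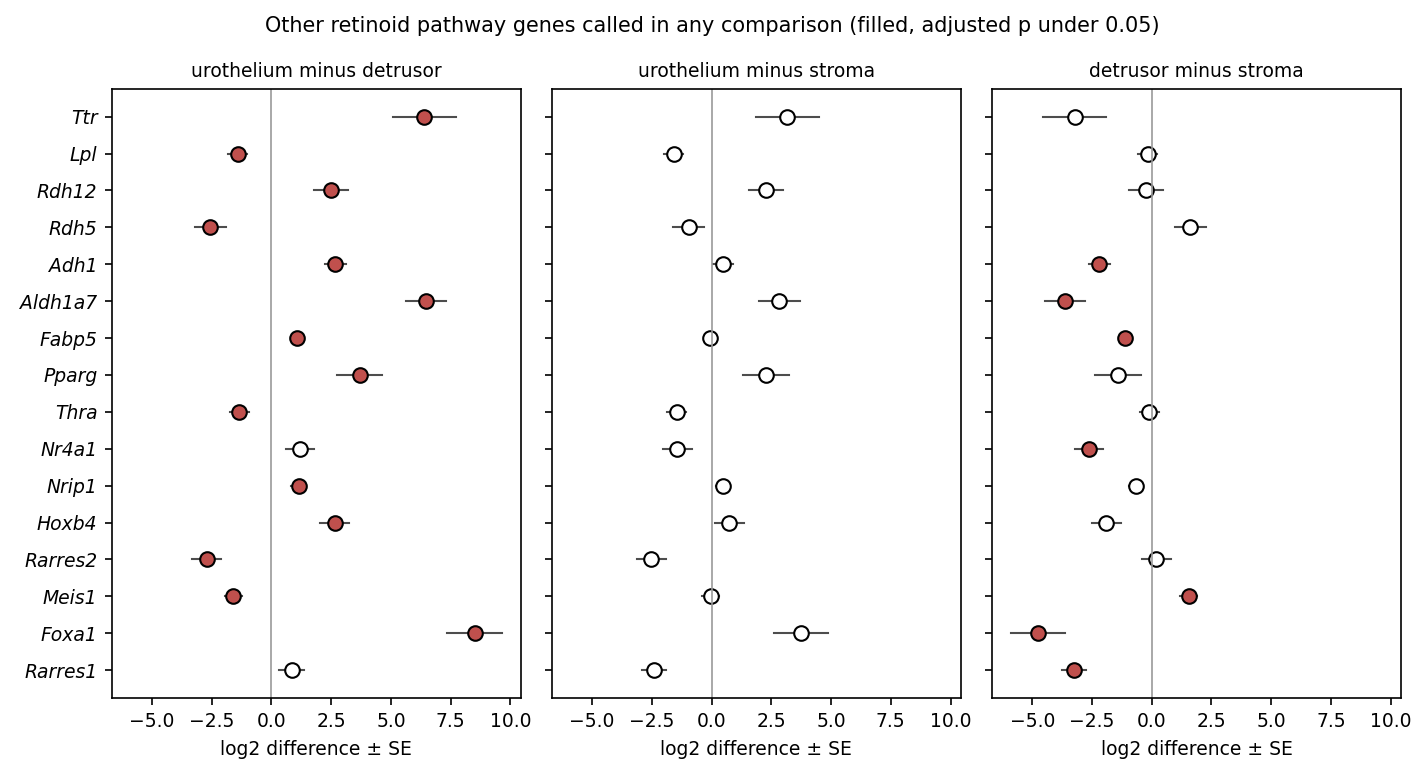
Log2 differences with SE for the other genes of the retinoid pathway that were called in at least 1 comparison, for urothelium minus detrusor, urothelium minus stroma and detrusor minus stroma (filled points, adjusted p under 0.05). Foxa1 at 8.50, Aldh1a7 at 6.46 and Ttr at 6.40 are the largest called differences in the first comparison, and Rarres1 at -3.27 is called in the last.

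Without stroma 3 and urothelium 3, of the 7 pathway genes called between detrusor and stroma Nr4a1 and Rarres1 were called again, and Adh1 (-1.93, adjusted p = 0.0642), Aldh1a7 (-2.83, adjusted p = 0.114), Fabp5 (-1.05, adjusted p = 0.0771), Meis1 (1.32, adjusted p = 0.0843) and Foxa1 were not. Of the 14 between urothelium and detrusor, Lpl (-1.38), Fabp5 (0.95), Nrip1 (1.10) and Hoxb4 (2.39) were not called (adjusted p between 0.053 and 0.0857), though their differences stayed close to those over all arrays, and Tgm2 and Meis2 were called. Between urothelium and stroma Rdh12 (3.31 ± 0.70, adjusted p = 0.0397) and Tgm2 were then called. Rdh12 had passed the filter only through urothelium, and its levels in stroma 1 and stroma 2 (5.83 and 5.94) were near the 5.30 of a signal of 0. Adh1, Aldh1a7, Foxa1 and Ttr between urothelium and detrusor, and Rarres1 between detrusor and stroma, were called under every alternative run in which they had a value.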

How the data were processed

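Total RNA of laser-captured bladder layers was amplified and hybridised to Affymetrix arrays, per the labels' protocols. The deposited table holds intensities of probe sets on a linear scale that the authors made with GCOS, Affymetrix software, per the submitters' processing notes, which leave its version, algorithm and target unstated. The mean after trimming 2% at each end was 1500.01 intensity units on all 9 arrays. They had thus been scaled to a common level before deposit, and this was kept. No detection calls came with the table.

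Of 45101 probe sets, 64 were controls, 34945 carried 1 gene symbol in the annotation of the platform, 932 carried several and 9160 were unnamed there. Symbols were looked up in a GRCm38.p6 gene table for 34741 probe sets, and 0 changed. Values became log2(intensity + 39.31), with a pseudocount at the 20th percentile. Probe sets with 1 symbol at or above the array median on at least 3 of 9 arrays were kept (22207), and each gene was read from its brightest one by mean (13064 genes). One limma 3.58.1 fit (R 4.3.3, lmFit, eBayes with a trend) over all 9 arrays compared the layers, with Benjamini-Hochberg adjustment over all genes and calls under 0.05. The day test had layer as a covariate. The number of arrays limits the precision: the median SE of a difference was 0.45. The fit was tested on simulated data with independent normal noise and shifts added to urothelium. Those data held no mixed captures and no shared animals, so they do not bear on these limits.

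The retinoid genes, the pathway list and the markers were chosen with earlier results of these data known. Besides the retinoid genes, the text names each called pathway gene, the 2 with the smallest p per group and comparison, and the 3 genes nearest to each retinoid gene by Pearson's r. Promoters are RefSeq's, GRCm38.p6. Alternatives were other normalizations, pseudocounts (8.13 and 232.88), filters, probe set rules, models and left-out arrays. Those for the pathway genes were chosen after seeing the data.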

Additional observations from a re-analysis of the deposited data

How the results depend on the processing

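Of 396 alternative values of retinoid gene differences, 383 kept their direction and their side of the threshold. Aldh1a2 was called in all 22 alternatives for urothelium minus detrusor (1.88 to 2.59) and for detrusor minus stroma (-3.03 to -2.32), and Rxra for urothelium minus detrusor (1.23 to 1.86). Dhrs3 for urothelium minus detrusor was lost in 4, with arrays centred on their medians (adjusted p = 0.0502) and without urothelium 1, urothelium 2 or detrusor 2. The number of retinoid genes called for urothelium minus stroma ranged from 0 to 1 with single replicates left out, 1 without stroma 3 (Rxra). Without stroma 3 the share of all genes called there was 4.04%, against 0.23% over all arrays. Of uncalled differences, Aldh1a3 reversed for urothelium minus detrusor with the median pseudocount (0.11), with array weights (0.34) and without urothelium 2 (1.17, against -1.33 without urothelium 3), and for urothelium minus stroma without urothelium 2 (0.70, against -1.80 without urothelium 3). Rarb reversed for urothelium minus stroma without urothelium 1 (-0.35) or stroma 1 (-0.52, up to 0.38 without stroma 3), and Rarg without urothelium 1 (-0.17) or stroma 2 (-0.24). Of 896 pathway gene values, 779 held, 95 lost and 12 gained a call and 10 reversed. The reversals were Fabp5 for urothelium minus stroma with quantile normalization (0.36), median centring (0.37), the mean of probe sets (0.45) and single replicates left out (-0.28 to 0.11), Cyp26b1 there without urothelium 2 (0.24) or stroma 2 (0.22, down to -2.06 without stroma 1), and Nrip1 for detrusor minus stroma with the mean of probe sets (0.13). Pathway genes called for urothelium minus detrusor, 14, came to 23 with array weights and 7 to 17 with a replicate left out. For urothelium minus stroma, 0, they came to 2 with the median pseudocount, 1 with the filter on 6 arrays, 2 with the mean of probe sets, 2 without stroma 3 and urothelium 3, and 0 to 6 with a replicate left out. For detrusor minus stroma, 7, they came to 3 without the trend, 2 without stroma 3 and urothelium 3, 4 with only the 2 layers fitted, and 1 to 9 with a replicate left out. The share of all genes called moved as well. For urothelium minus detrusor it was 29% with array weights and 8.97% to 18.6% with a replicate left out, against 16.4%. For urothelium minus stroma it was, in the order above, 2.33%, 0.994%, 0.888%, 3.37% and 0% to 4.04%, against 0.23%. For detrusor minus stroma it was 4.62%, 3.28%, 4.78% and 0.804% to 6.51%, against 5.84%. The causes were not tested. Median centring moved the median of all genes to 0.31, against -0.12, for urothelium minus stroma and to 0.25, against -0.16, for detrusor minus stroma, where the genes called then split into 589 higher and 144 lower, against 408 and 355. For urothelium minus stroma they split into 192 higher and 31 lower, against 8 and 22. No paired analysis was possible because the sample titles share no replicate numbers between layers.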
